A study of Mus musculus with 12 samples.

Results

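In all, 10 genes of the unfolded protein response and the integrated stress response were followed in calf muscle of a mouse strain used as a model of diabetes: Atf4, Ddit3, Xbp1, Trib3, Chac1, Asns, Hspa5, Hsp90b1, Pdia4 and Herpud1. They were chosen by name, and all 10 had 1 probe set each among 23185 named genes. The arrays came from gastrocnemius of 12 mice of a strain that carries the db allele of the leptin receptor gene Lepr. The mice were 12 weeks old, and the sources used here do not give the zygosity of each animal. All had received adenovirus, 4 dose units in every group (1 unit is 1000000000 plaque-forming units), and were killed 1 week later. Control animals 18, 19 and 20 received control shRNA virus alone. TSC22D4 animals 25, 26 and 27 received 2 units of TSC22D4 shRNA virus and 2 of control virus, and LCN13 animals 21, 22 and 23 received 2 of LCN13 shRNA virus and 2 of control virus. TSC22D4+LCN13 animals 29, 30 and 32 received 2 of each target virus and no control virus. Every group thus carried virus, and no untreated or lean mouse was analysed here. Control virus was 4 units in control, 2 in each single-virus group and 0 in TSC22D4+LCN13 animals. Between any 2 groups other than TSC22D4 and LCN13, less control virus and added target virus cannot be told apart. The 3 animals on arrays were picked as representative of 7 treated per group, which may narrow the spread seen here relative to all 7. Values are log2 levels of array brightness, in which a difference of 1 is a doubling.

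The unfolded protein response is the programme by which a cell adjusts the endoplasmic reticulum (ER), where secreted and membrane proteins fold, to its load of unfolded protein. The sensors IRE1, ATF6 and PERK lead to the transcription factors XBP1, ATF6 and ATF4, which raise chaperones and degradation factors. The integrated stress response shares the ATF4 arm: PERK, PKR, GCN2 and HRI each phosphorylate the translation factor eIF2, which slows protein synthesis but favours translation of Atf4 mRNA. Skeletal muscle has a specialised ER, the sarcoplasmic reticulum, and responds to fasting, exercise, lipid load and mitochondrial faults through these genes. Much of this control acts on translation, splicing and protein cleavage, which these arrays do not measure. In bulk tissue fewer cells of a type and less RNA per cell cannot be told apart.

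Promoter sequence sorts the genes by the letters known to be bound in these responses. The 250 bases before each gene's start were searched on both strands for 4 motifs, in RefSeq sequence of mouse build GRCm38.p6, and all 10 genes had an entry. ERSE, the ER stress element, was written as CCAAT, 9 bases of any kind and CCACG, and it occurred in 37 of 32851 promoters (0.113%), among them Hspa5 and Hsp90b1. ERSE-II, ATTGG, 1 base of any kind and CCACG, occurred in 10 (0.0304%), among them Herpud1, and it shares its last 5 letters with ERSE. CARE, the element of ATF4 and C/EBP proteins, written TGATGNAA, occurred in 1134 (3.45%), among them Chac1, Asns and Herpud1. UPRE, written TGACGTGG, occurred in 185 (0.563%) and in none of the 10 genes. The stretches that hold a match are shown because they give the known response elements of 5 of the 10 genes, and Atf4, Ddit3, Xbp1, Trib3 and Pdia4 had no match in this window. They are printed with the motif in capitals, written 5′ to 3′ on the strand of the gene, and no 2 matches overlap. A match is a description of letters, and no binding was measured here.
Hspa5, ERSE, chr2:34772013-34772055, plus strand, motif 65 to 47 bases before the start: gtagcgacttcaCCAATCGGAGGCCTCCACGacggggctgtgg
Hsp90b1, ERSE, chr10:86705626-86705668, minus strand, motif 212 to 194 bases before the start: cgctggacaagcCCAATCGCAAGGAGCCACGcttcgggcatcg
Hsp90b1, ERSE on the opposite strand, chr10:86705521-86705563, minus strand, motif 107 to 89 bases before the start: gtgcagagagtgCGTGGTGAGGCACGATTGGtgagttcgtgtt
Herpud1, ERSE-II, chr8:94386365-94386399, plus strand, motif 52 to 42 bases before the start: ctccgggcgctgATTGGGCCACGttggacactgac
Herpud1, CARE on the opposite strand, chr8:94386305-94386336, plus strand, motif 112 to 105 bases before the start: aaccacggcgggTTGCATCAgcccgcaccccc
Chac1, CARE on the opposite strand, chr2:119351037-119351068, plus strand, motif 193 to 186 bases before the start: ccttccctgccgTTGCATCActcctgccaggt
Asns, CARE, chr6:7693213-7693244, minus strand, motif 23 to 16 bases before the start: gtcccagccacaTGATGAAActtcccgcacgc

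The arrays were first set against their labels. The 12 skeletal muscle markers had a mean log2 level of 13.55 to 13.64 on every array. Tsc22d4 lay between 6.43 and 7.01 and was not lower in arrays labelled TSC22D4 shRNA than in control (log2 difference 0.24, limma adjusted p = 0.619). Lcn13 is now named Obp2a and lay between 4.90 and 4.97, close to the lowest value of any probe set (4.78), so its knockdown could not be judged. Groups are therefore named throughout by their labels, and the sources used here do not say which tissues took up virus. The 10 tendon and fibroblast markers had a mean level of 8.91 to 9.78 on control arrays, 9.52 to 10.12 on TSC22D4 arrays, 9.98 to 10.22 on LCN13 arrays and 9.83 to 10.47 on TSC22D4+LCN13 arrays. The mean of 8 hepatocyte markers was 5.80 to 6.38, 5.86 to 6.02, 6.11 to 7.26 and 5.75 to 6.81 in the same order.

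Of the 10 genes, Atf4 alone passed an adjusted p of 0.05 in limma with all arrays fitted. It fell with TSC22D4+LCN13 shRNA against control and against LCN13 shRNA, by 15.3% and 17.8% on the linear scale. Its known targets Ddit3, Trib3, Chac1 and Asns and the chaperones passed no test in these comparisons. A gene that did not pass is not thereby shown to be unchanged. Intervals given below for Xbp1, Chac1 and Hsp90b1 exclude 0, and Pdia4 with LCN13 shRNA also had an unadjusted p below 0.05 in limma. Against control, 0 of 10 genes passed limma's test at an adjusted p of 0.05 with TSC22D4 shRNA, where 0.336% of all genes passed and 2146 had an unadjusted p below 0.05. With LCN13 shRNA 0 of 10 passed (0.85% of all genes, 2870 at an unadjusted p below 0.05), and with TSC22D4+LCN13 shRNA 1 of 10 passed (4.34% of all genes). The same 3 control arrays serve all 3 of these comparisons. TSC22D4+LCN13 shRNA against TSC22D4 shRNA gave 0 of 10 (0% of all genes, 2434 at an unadjusted p below 0.05), and against LCN13 shRNA 1 of 10 (4.21%). TSC22D4 against LCN13 shRNA gave 0 of 10 (0.125%, 3240 at an unadjusted p below 0.05), as did the interaction of the 2 viruses (0.125%, 2219 at an unadjusted p below 0.05). The test for any difference among the 4 groups called 1 of 10 genes (3.33% of all genes). At an unadjusted p below 0.05 in limma there were 0, 3 and 2 of the 10 genes against control with TSC22D4, LCN13 and TSC22D4+LCN13 shRNA, 1 and 2 in TSC22D4+LCN13 against TSC22D4 and LCN13 shRNA, 2 in TSC22D4 against LCN13 shRNA and 2 in the interaction. The median log2 difference of the 10 genes from control was -0.06, 0.07 and 0.03 with TSC22D4, LCN13 and TSC22D4+LCN13 shRNA, and the median of all genes was 0.00, 0.00 and -0.01.

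**Figure D1:**
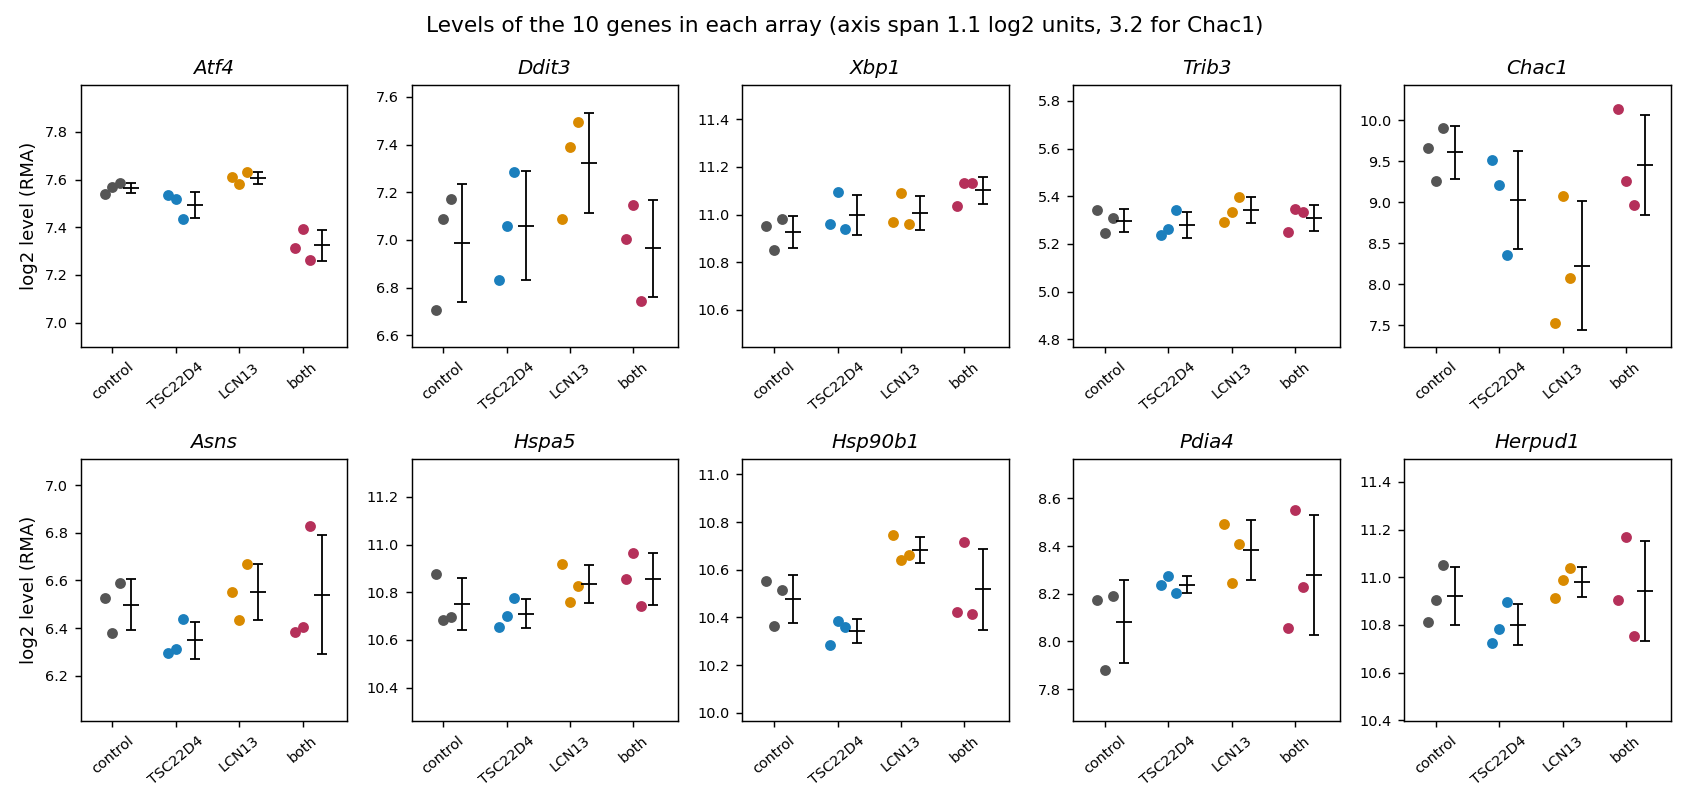
Log2 level of each of the 10 genes in every array, by shRNA group; points are arrays, and the bar beside them is the mean with 1 SD (n = 3). Each axis spans 1.1 log2 units, and that of Chac1 3.2. The 3 TSC22D4+LCN13 arrays of Atf4, 7.26 to 7.39, lie below the 9 others, and Chac1 spreads over 2.62 log2 units.

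Atf4 encodes the transcription factor at the centre of the integrated stress response. It measured 7.54, 7.57 and 7.58 in control animals 18, 19 and 20, and 7.61, 7.58 and 7.63 in LCN13 animals 21, 22 and 23. It measured 7.53, 7.52 and 7.43 in TSC22D4 animals 25, 26 and 27, and 7.31, 7.39 and 7.26 in TSC22D4+LCN13 animals 29, 30 and 32. All 3 TSC22D4+LCN13 arrays lay below every other array, and the TSC22D4 arrays lay narrowly below control. Against control the log2 difference with TSC22D4+LCN13 shRNA was -0.24 (SE 0.0373, 95% interval -0.323 to -0.156, limma adjusted p = 0.00962), which is 1.18-fold lower. Against LCN13 shRNA Atf4 fell by 0.28 (adjusted p = 0.00785 in limma), or 1.22-fold. Against TSC22D4 shRNA the difference was -0.17 (limma unadjusted p = 0.00112, adjusted p = 0.229), in a comparison where 0% of all genes passed. TSC22D4 against LCN13 shRNA gave -0.11 (limma unadjusted p = 0.0133, adjusted p = 0.212). Neither difference passed although the arrays do not overlap. The group means ran from TSC22D4+LCN13 (7.32) through TSC22D4 (7.49) and control (7.56) to LCN13 (7.61), and no neighbours in that order passed: TSC22D4 shRNA against control gave -0.07 (limma adjusted p = 0.647) and LCN13 shRNA against control 0.04 (adjusted p = 0.758). The departure from additivity of the 2 viruses was -0.21 (SE 0.0527, 95% interval -0.331 to -0.0953, limma unadjusted p = 0.0025, adjusted p = 0.208). A larger fall with both viruses than the sum of each was thus not shown at the adjusted threshold. The spread of Atf4 within groups was small, with an SD of 0.0455 at the 36.5th percentile of all genes. Both calls held in each of the 12 fits without 1 array, with an adjusted p of at most 0.0453 and 0.0283. Both were lost with limma's trend and robust options (adjusted p = 0.0941 against control and 0.0555 against LCN13) and when only the 6 compared arrays were fitted (0.0648 and 0.0866). With the tendon and fibroblast mean as a covariate, which was added only after results were known, the difference was -0.233 (limma adjusted p = 0.192) against control and -0.282 (adjusted p = 0.0109) against LCN13 shRNA. Over all genes the covariate left 27 calls against control, in place of 1007. Red cell markers moved with the fall: the mean of 3 was 5.35 to 5.94 on control, 5.39 to 5.52 on LCN13, 5.90 to 6.53 on TSC22D4 and 6.38 to 7.46 on TSC22D4+LCN13 arrays, with 3 of 3 higher in TSC22D4+LCN13 than in control arrays, 2 past the threshold. The mean of 7 macrophage markers was 6.26 to 6.39 on control and 6.56 to 7.09 on TSC22D4+LCN13 arrays, 7 of 7 higher and 2 past the threshold. Their part in the result was not tested.

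**Figure D2:**
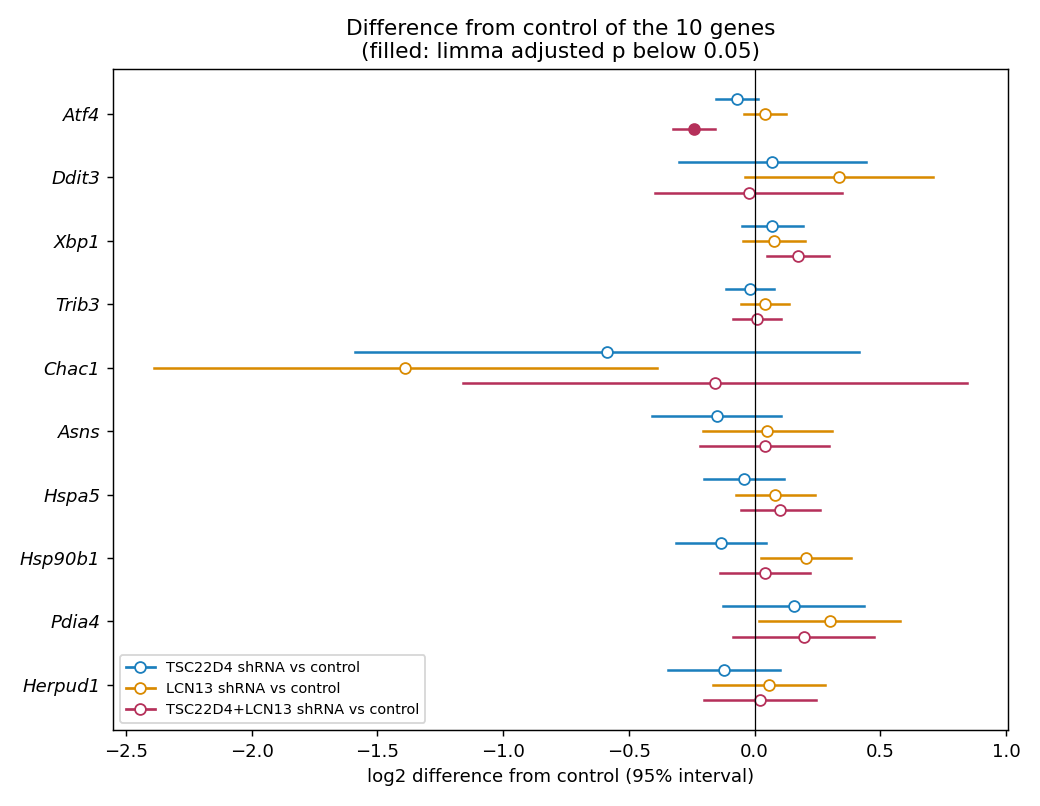
Log2 difference of each gene from control in the 3 shRNA groups, with the 95% interval of the limma fit (3 arrays against 3); filled points passed an adjusted p of 0.05. Atf4 with TSC22D4+LCN13 shRNA (-0.24) is the only filled point, and the intervals of Chac1 are the widest.

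Ddit3 and Xbp1, the other transcription factors, passed no test. Ddit3 encodes CHOP, a factor downstream of ATF4 that promotes cell death under lasting stress. Ddit3 measured 6.71, 7.09 and 7.17 in control animals, 6.83, 7.06 and 7.29 in TSC22D4 animals, 7.09, 7.39 and 7.49 in LCN13 animals and 7.00, 7.15 and 6.74 in TSC22D4+LCN13 animals. All 4 groups overlap, and the differences from control were 0.07, 0.34 and -0.02 with TSC22D4, LCN13 and TSC22D4+LCN13 shRNA (SE 0.166, limma adjusted p = 0.954, 0.461 and 0.961). The 95% interval with TSC22D4+LCN13 shRNA ran from -0.396 to 0.348, so a fall of Ddit3 as large as that of Atf4 could not be told from none. Against LCN13 shRNA the difference was -0.36 (95% interval -0.732 to 0.0124, limma adjusted p = 0.255), and the departure from additivity was -0.43 (adjusted p = 0.62).

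Xbp1 encodes the factor that IRE1 activates by splicing its mRNA, and the probe set does not tell the spliced form from the unspliced. Xbp1 measured 10.95, 10.85 and 10.98 in control animals, 10.96, 11.10 and 10.94 in TSC22D4 animals, 10.97, 11.09 and 10.96 in LCN13 animals and 11.04, 11.13 and 11.13 in TSC22D4+LCN13 animals. The TSC22D4+LCN13 arrays all lay above control, and those of the single viruses overlap both. The difference was 0.17 (SE 0.0546, 95% interval 0.0511 to 0.295, unadjusted p = 0.0103, limma adjusted p = 0.109) and did not pass. With the single viruses it was 0.07 and 0.08 (adjusted p = 0.796 and 0.661 in limma).

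Trib3, Chac1 and Asns are targets of ATF4 that feed back on it or serve amino acid supply. Trib3 encodes a pseudokinase that restrains ATF4, CHOP and the insulin signalling kinase AKT. It lay between 5.24 and 5.40 on the 12 arrays, below the array median of 5.48 on every one, so a level near background limits what could be seen. Its differences from control were between -0.02 and 0.04 (SE 0.0423), and the lowest adjusted p in limma was 0.811.

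Chac1 encodes an enzyme that breaks down glutathione and is among the most responsive targets of ATF4. It measured 9.67, 9.26 and 9.91 in control animals 18, 19 and 20, 7.52, 9.07 and 8.07 in LCN13 animals 21, 22 and 23, 9.51, 9.21 and 8.36 in TSC22D4 animals 25, 26 and 27, and 10.14, 9.26 and 8.96 in TSC22D4+LCN13 animals 29, 30 and 32. The LCN13 arrays all lay below control, and LCN13 animal 21 and TSC22D4+LCN13 animal 29 mark the ends of a 6.15-fold range. Its SD within groups, 0.603, stood at the 99.9th percentile of all genes. With LCN13 shRNA the log2 difference from control was -1.39 (SE 0.448, 95% interval -2.39 to -0.386, unadjusted p = 0.0117, limma adjusted p = 0.213) and did not pass. TSC22D4+LCN13 against LCN13 shRNA gave 1.23 (limma adjusted p = 0.155), and the departure from additivity was 1.82 (SE 0.633, adjusted p = 0.38).

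Chac1 moved opposite to the tendon and fibroblast markers after removal of group means. The marker mean was 10.22, 9.98 and 10.11 in LCN13 animals 21, 22 and 23 and 9.52, 9.98 and 10.12 in TSC22D4 animals 25, 26 and 27, and in both groups the order of Chac1 was the reverse. It was not fully so in control animals 18, 19 and 20, with marker means of 8.91, 9.78 and 8.95, nor in TSC22D4+LCN13 animals 29, 30 and 32, with 9.83, 10.47 and 10.36. Over 12 arrays with group means removed Pearson's r was -0.712 (exact permutation within groups, two-sided p = 0.00309), Spearman's rho was -0.762 (exact p = 0.00386), and r was -0.695 without the 2 arrays farthest from the median marker level. This was 1 of 10 such relations, 1 per gene, with Benjamini-Hochberg values of 0.0309 and 0.0386 for r and rho. The r of the 9 others lay between -0.159 and 0.319. That adjustment does not count the choice of this marker list among the others, and the lists were chosen with earlier results known. How many of all genes had as strong a relation was not computed. With the marker mean as a covariate the difference of Chac1 between LCN13 shRNA and control was -0.271 (limma adjusted p = 0.974), and with TSC22D4+LCN13 shRNA it was 1.11 (adjusted p = 0.443) in place of -0.16.

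Asns encodes asparagine synthetase, which makes asparagine from aspartate and glutamine. It measured 6.53, 6.38 and 6.59 in control animals, 6.29, 6.31 and 6.44 in TSC22D4 animals, 6.55, 6.43 and 6.67 in LCN13 animals and 6.39, 6.41 and 6.83 in TSC22D4+LCN13 animals 29, 30 and 32. The groups overlap, and animal 32 stood above the 11 other arrays. Differences from control were -0.15, 0.05 and 0.04 with TSC22D4, LCN13 and TSC22D4+LCN13 shRNA (SE 0.115, limma adjusted p = 0.791, 0.942 and 0.892).

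The 4 genes of ER folding and quality control passed no test in any comparison. Hspa5 encodes BiP, the ER chaperone that holds the sensors inactive. It measured 10.88, 10.68 and 10.70 in control animals, 10.66, 10.70 and 10.78 in TSC22D4 animals, 10.92, 10.76 and 10.83 in LCN13 animals and 10.86, 10.96 and 10.74 in TSC22D4+LCN13 animals. The 4 groups overlap, and differences from control were -0.04, 0.08 and 0.10 with TSC22D4, LCN13 and TSC22D4+LCN13 shRNA (SE 0.0705, limma adjusted p = 0.933, 0.755 and 0.469). The interval with TSC22D4+LCN13 shRNA ran from -0.0547 to 0.261, which leaves room for a rise of up to 0.261 and little for a fall.

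Hsp90b1 encodes GRP94, the HSP90 of the ER, which folds receptors and integrins. It measured 10.55, 10.37 and 10.51 in control animals, 10.29, 10.38 and 10.36 in TSC22D4 animals, 10.75, 10.64 and 10.66 in LCN13 animals and 10.42, 10.71 and 10.41 in TSC22D4+LCN13 animals 29, 30 and 32. The LCN13 arrays lay above every control and TSC22D4 array, and animal 30 alone of the TSC22D4+LCN13 group reached their level. TSC22D4 against LCN13 shRNA gave -0.34 (SE 0.08, 95% interval -0.52 to -0.161, unadjusted p = 0.0018, limma adjusted p = 0.104), and LCN13 shRNA against control gave 0.21 (adjusted p = 0.314). TSC22D4+LCN13 against LCN13 shRNA gave -0.165 with all arrays (limma adjusted p = 0.276). Without TSC22D4+LCN13 animal 30, which entered TSC22D4 against LCN13 shRNA through the shared spread, the adjusted p of that comparison in limma was 0.0345. The same fit gave -0.264 (adjusted p = 0.0349) for TSC22D4+LCN13 against LCN13 shRNA. Each was called in only 1 of the 12 fits without 1 array, and the highest adjusted p in limma was 0.305 and 0.541.

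Pdia4 encodes ERp72, a disulfide isomerase, and Herpud1 encodes a membrane protein that assembles the complex for degradation of ER proteins. Pdia4 measured 8.17, 7.88 and 8.19 in control animals, 8.24, 8.28 and 8.20 in TSC22D4 animals, 8.49, 8.24 and 8.41 in LCN13 animals and 8.05, 8.55 and 8.23 in TSC22D4+LCN13 animals 29, 30 and 32. Both single-virus groups lay above all control arrays, but the differences of 0.16 and 0.30 with TSC22D4 and LCN13 shRNA did not pass (SE 0.125, limma adjusted p = 0.81 and 0.355). The difference with LCN13 shRNA had an unadjusted p below 0.05 in limma. Herpud1 measured 10.81, 10.90 and 11.05 in control animals, 10.72, 10.78 and 10.89 in TSC22D4 animals, 10.91, 10.99 and 11.04 in LCN13 animals and 10.90, 11.17 and 10.75 in TSC22D4+LCN13 animals 29, 30 and 32. Only the TSC22D4 and LCN13 arrays of Herpud1 do not overlap, with a difference of -0.18 (limma adjusted p = 0.481).

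The LCN13 means of Hspa5, Hsp90b1, Pdia4 and Herpud1 were each above control, by 0.06 to 0.30, and the TSC22D4 means of all 4 were below LCN13, by 0.12 to 0.34. The hepatocyte markers moved the same way, with 8 of 8 above control in LCN13 arrays (median 0.41) and 8 of 8 lower in TSC22D4 than in LCN13 arrays, 0 of them past the threshold. So did the adipocyte markers, with 7 of 7 above control (median 0.234) and 7 of 7 lower, 0 past the threshold. Of the tendon and fibroblast markers 10 of 10 were above control and 8 of 10 lower, again 0 past the threshold. The part of these 3 marker lists in the result was not tested. Arrays that do not overlap were found for 2, 3 and 2 of the 10 genes against control with TSC22D4, LCN13 and TSC22D4+LCN13 shRNA, against 16.9%, 18.8% and 23.7% of all genes. They were found for 2 genes in TSC22D4+LCN13 against TSC22D4 shRNA (14.6% of all genes), 1 in TSC22D4+LCN13 against LCN13 shRNA (22.6%) and 3 in TSC22D4 against LCN13 shRNA (21.3%). These shares lie on both sides of those of all genes.

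The 3 highest correlations among the 10 genes from animal to animal did not pass adjustment and are given as a description. After removal of group means Hsp90b1 and Pdia4 had Pearson's r = 0.896 over 12 arrays (exact permutation within groups, two-sided p = 0.0139), Spearman's rho of 0.888, and r = 0.782 without the 2 arrays farthest from the median. Hspa5 and Hsp90b1 had r = 0.772 (exact permutation p = 0.0285, rho = 0.748, r = 0.633 without 2 arrays). Ddit3 and Herpud1 had r = 0.841 (exact permutation p = 0.00309, rho = 0.888, r = 0.845 without 2 arrays). None of the 45 pairs passed after adjustment over the pairs, with adjusted p of 0.312, 0.428 and 0.139 for these 3. Atf4 had r of 0.184 with Ddit3, -0.195 with Trib3, 0.226 with Chac1 and -0.486 with Asns, and the exact permutation p of these pairs was 0.36 or more. Among 11591 genes above the median level, Pdia4 ranked 44th and Hspa5 290th in likeness to Hsp90b1, and Ddit3 ranked 124th in likeness to Herpud1.

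**Figure D3:**
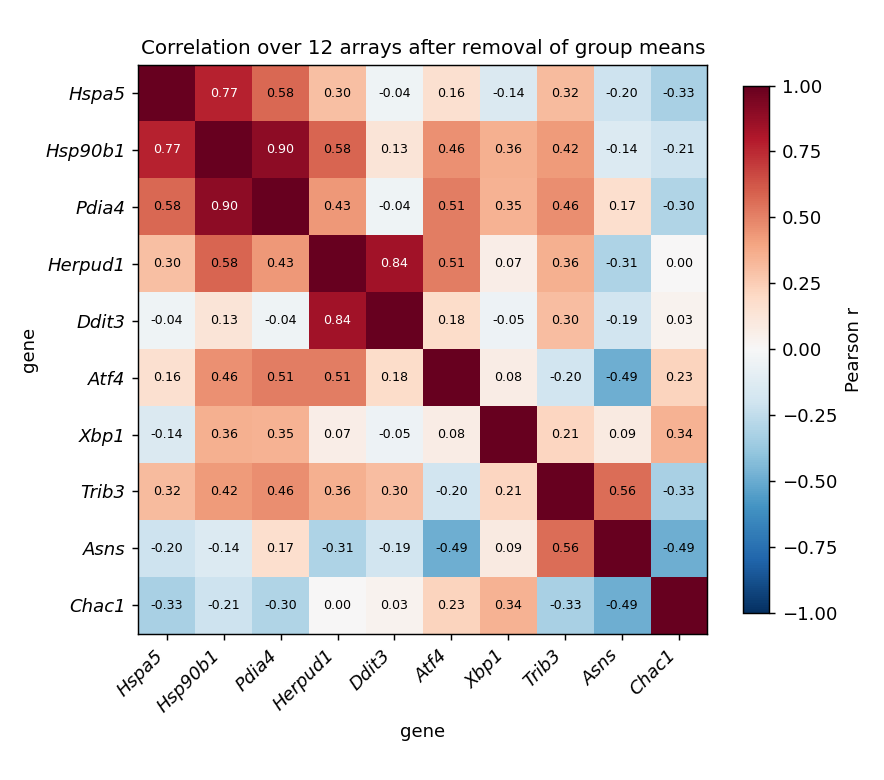
Pearson's r between the 10 genes over 12 arrays after removal of group means, from -1 (blue) to 1 (red). Hsp90b1 with Pdia4 (0.896), Ddit3 with Herpud1 (0.841) and Hspa5 with Hsp90b1 (0.772) are the 3 highest, and none of the 45 pairs passed adjustment.

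The genes most like the highest-level gene of each branch lay outside these responses. Over the same 12 arrays and 11591 genes, Xbp1 was closest to Pold1 and Aatk (r = 0.912 each), Ncstn (0.88), 1700094J05Rik (0.877) and Taz (0.873). Chac1 was closest to Actr8 (r = 0.941), Ckap5 (0.912), Casc3 (0.91), and Tbcb and Fgf11 (0.909 each). Each such r is the highest of many and is given as a description.

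The wider pathway was read from a list of 142 other genes, of which 136 were measured, in 7 classes by role. With TSC22D4+LCN13 shRNA against control 8 rose and 8 fell (11.8%, against 4.34% of all genes). All genes include dim ones, and the list was not matched to them in level, here or in the comparisons below. The median of the list was -0.02, against -0.01 for all genes. With TSC22D4 shRNA 0 rose and 1 fell (0.735%, against 0.336% of all genes), and with LCN13 shRNA 0 rose and 2 fell (1.47%, against 0.85%). TSC22D4+LCN13 against TSC22D4 shRNA called none of the 136 in limma and the interaction none (0% and 0.125% of all genes), with 22 and 20 at an unadjusted p below 0.05. TSC22D4+LCN13 against LCN13 shRNA gave 3 higher and 6 lower (6.62%, against 4.21% of all genes), and TSC22D4 against LCN13 shRNA gave 1 higher (0.735%, against 0.125%). The 8 rises and 8 falls became 4 and 2 without control animal 20, 1 and 2 with the compared arrays alone, and 0 and 0 with the tendon and fibroblast mean as a covariate. Calls over all genes in this comparison went from 1007 to 334 without control animal 20 and to 27 with the covariate. The 3 higher became 1 without control animal 20, and, in another fit, the 6 lower became 1 without LCN13 animal 21. Both counts became 0 with the compared arrays alone. Calls over all genes there went from 977 to 318 without LCN13 animal 21 and to 0 with the compared arrays alone.

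Among 16 sensors and eIF2 factors, Eif2ak2 fell in all 3 groups against control. It encodes PKR, the eIF2 kinase that is activated by double-stranded RNA and induced by interferon. Eif2ak2 measured 6.43, 6.06 and 6.14 in control animals, 5.65, 5.62 and 5.66 in TSC22D4 animals, 5.52, 5.63 and 5.64 in LCN13 animals and 5.65, 5.62 and 5.52 in TSC22D4+LCN13 animals. Every control array lay above all 9 others. The log2 differences were -0.57, -0.61 and -0.61 with TSC22D4, LCN13 and TSC22D4+LCN13 shRNA (SE 0.0825, limma adjusted p = 0.0204, 0.0112 and 0.00594). The call with TSC22D4 shRNA was lost without control animal 20 or any 1 of the 3 TSC22D4 arrays (highest adjusted p = 0.114 in limma), and all 3 were lost with the 6 compared arrays alone and with the marker covariate, where the differences were -0.443, -0.446 and -0.423. Over all genes the covariate left 25, 4 and 27 calls in these comparisons, in place of 78, 197 and 1007.

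Eif2b5, the catalytic subunit of the exchange factor that recharges eIF2, fell with TSC22D4+LCN13 shRNA. It measured 7.21, 7.22 and 7.30 in control animals and 6.87, 6.86 and 6.90 in TSC22D4+LCN13 animals, and the 6 single-virus arrays lay between 7.05 and 7.25. The difference was -0.37 against control (SE 0.0535, limma adjusted p = 0.00858) and -0.31 against LCN13 shRNA (adjusted p = 0.0172), the latter lost without LCN13 animal 21 (adjusted p = 0.0594). Eif2ak4, which encodes the amino acid sensor GCN2, fell by 0.25 against LCN13 shRNA (limma adjusted p = 0.027). Its call was lost in 5 of the 12 fits without 1 array, those without any LCN13 array and without TSC22D4+LCN13 animals 29 or 32.

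Of 35 targets of the integrated stress response and of ATF4, 1 rose and 3 fell with TSC22D4+LCN13 shRNA against control (11.4%, against 4.34% of all genes). Aldh18a1, which makes a precursor of proline, rose by 0.37 (SE 0.0627, limma adjusted p = 0.0144), from 5.41 to 5.78, and was lost without control animal 20. Gpt2, the mitochondrial alanine aminotransferase, fell by 0.31 (adjusted p = 0.0288 in limma) and with LCN13 shRNA by 0.41 (adjusted p = 0.0212), lost in 4 and 3 of the 12 fits without 1 array. Those fits left out control animals 18 or 20 or TSC22D4+LCN13 animals 30 or 32 for the first, and control animal 20 or LCN13 animals 21 or 23 for the second. Ero1a, the oxidase that supplies disulfide bonds, fell by 0.25 against control (limma adjusted p = 0.0201), lost without control animals 18 or 20 or TSC22D4+LCN13 animal 32, and by 0.32 against LCN13 shRNA (adjusted p = 0.00949), kept in all 12. Tars, the threonyl-tRNA synthetase, measured -0.32 (limma adjusted p = 0.0456) and passed in none of the 12 fits without 1 array.

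Wars, the tryptophanyl-tRNA synthetase, is induced by interferon gamma. It measured 9.87, 9.78 and 9.81 in control animals, 9.53, 9.55 and 9.19 in LCN13 animals, 10.27, 9.99 and 10.04 in TSC22D4 animals and 9.92, 9.87 and 9.84 in TSC22D4+LCN13 animals. The LCN13 arrays lay below all others. Wars was higher by 0.68 with TSC22D4 than with LCN13 shRNA (SE 0.0967, limma adjusted p = 0.0464) and by 0.45 with TSC22D4+LCN13 than with LCN13 shRNA (adjusted p = 0.0342). The first call was lost in 10 of the 12 fits without 1 array (all but those without TSC22D4+LCN13 animals 29 or 30). The second was lost in 7, those without control animal 20, LCN13 animals 21 or 23, TSC22D4 animal 27 or any TSC22D4+LCN13 array. Ddit4, an inhibitor of mTORC1 outside the naming rule and chosen after its values were seen, had the lowest difference of the list in each of the 3 comparisons with control, at -1.47, -1.64 and -1.13 with TSC22D4, LCN13 and TSC22D4+LCN13 shRNA (SE 0.351, limma adjusted p = 0.16, 0.0758 and 0.106), and did not pass.

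Genes of ER folding and traffic held the largest rises with TSC22D4+LCN13 shRNA against control, at 2 rises and 0 falls of 25 chaperones and folding factors and 4 rises and 1 fall (Sec63) of 21 genes of translocation and export. Of all 23185 genes 399 rose and 608 fell (4.34%). Kdelr3 and Kdelr2 encode receptors that return chaperones such as BiP from the Golgi to the ER. Kdelr3 measured 5.98, 6.08 and 6.18 in control animals, 6.42, 6.95 and 6.87 in TSC22D4 animals, 6.84, 6.59 and 6.60 in LCN13 animals and 6.82, 7.32 and 7.71 in TSC22D4+LCN13 animals. Every control array lay below the 9 others, and the difference with TSC22D4+LCN13 shRNA was 1.20 (SE 0.207, limma adjusted p = 0.0153), or 2.30-fold, lost without control animal 18 (adjusted p = 0.0507). Kdelr2 rose by 0.54 (adjusted p = 0.0184 in limma), lost without control animals 18 or 20 or TSC22D4+LCN13 animal 32.

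Fkbp14 encodes a prolyl isomerase of the ER that acts on collagen. It measured 6.78, 6.65 and 6.73 in control animals, 7.17, 7.37 and 7.29 in TSC22D4 animals, 7.30, 7.13 and 7.14 in LCN13 animals and 7.48, 7.45 and 7.96 in TSC22D4+LCN13 animals. The control arrays were again the lowest 3, and Fkbp14 rose by 0.91 with TSC22D4+LCN13 shRNA (SE 0.122, limma adjusted p = 0.00573), or 1.88-fold, in each of the 12 fits without 1 array. Creb3l2, a membrane-bound transcription factor that raises secretory traffic in cartilage, rose by 0.46 (SE 0.071, adjusted p = 0.00958 in limma), from 7.79 ± 0.0804 to 8.24 ± 0.0401 (SD, n = 3), and Ssr2, of the complex beside the translocon, by 0.39 (adjusted p = 0.00958), both also in all 12. Cnpy2 rose by 0.27 (limma adjusted p = 0.0197), lost without control animals 19 or 20, and Sec61a1, the pore of the translocon, measured 0.52 (adjusted p = 0.0475) and was lost in 11 of the 12 fits, all but that without TSC22D4+LCN13 animal 29.

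Tendon and fibroblast markers moved with these rises. Against control 10 of 10 markers were higher with TSC22D4+LCN13 shRNA, 1 past the threshold, with a median of 0.97. With the tendon and fibroblast mean as a covariate the difference was 0.726 for Kdelr3, 0.843 for Fkbp14, 0.314 for Kdelr2, 0.3 for Creb3l2, 0.392 for Ssr2, 0.142 for Sec61a1 and 0.372 for Cnpy2, and none passed (limma adjusted p from 0.105 to 0.729). Over all genes the covariate left 27 calls in this comparison, against 1007 without it, so the lost calls are not particular to these genes. The differences of Ssr2 and Cnpy2 were no smaller than without the covariate. The part of the macrophage and red cell markers given beside Atf4 was not tested here either. Plasma cells have high levels of these genes. Of 8 B and plasma cell markers, 6 lay below the array median on every array, Jchain among them, but Ighm lay between 9.55 and 11.18. Its group mean was 10.58 in control, 10.47 in TSC22D4, 9.89 in LCN13 and 11.13 in TSC22D4+LCN13 arrays, a difference of 0.55 between TSC22D4+LCN13 shRNA and control (limma adjusted p = 0.201) and of 1.24 between TSC22D4+LCN13 and LCN13 shRNA (adjusted p = 0.0199). Its part in the result was not tested.

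**Figure D4:**
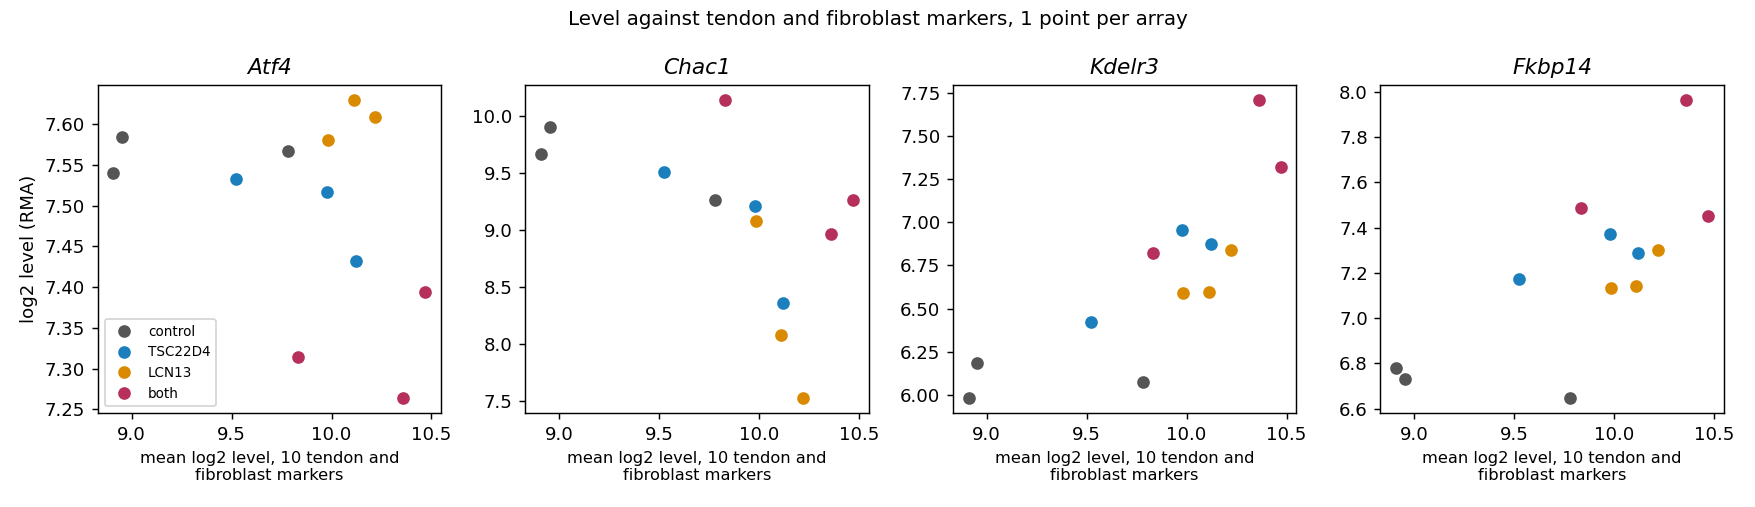
Log2 level of Atf4, Chac1, Kdelr3 and Fkbp14 against the mean log2 level of 10 tendon and fibroblast markers, 1 point per array, coloured by shRNA group. Kdelr3 and Fkbp14 are lowest in the 3 control arrays, whose marker mean is 8.91 to 9.78, Chac1 is lowest in LCN13 animal 21 at a marker mean of 10.22, and Atf4 has r = -0.053 with the marker mean after removal of group means.

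Genes of ER-associated degradation (ERAD), which sends misfolded proteins to the proteasome, gave 0 rises and 2 falls of 20 with TSC22D4+LCN13 shRNA against control. That is 10% of the class, against 4.34% of all genes. Vcp, the ATPase that pulls substrates from the membrane, fell by 0.36 (SE 0.0729, limma adjusted p = 0.0287), lost without control animals 19 or 20 or TSC22D4+LCN13 animals 30 or 32. Selenos, a selenoprotein that recruits VCP, fell by 0.34 against control (adjusted p = 0.0325 in limma) and by 0.32 against LCN13 shRNA (adjusted p = 0.0392). The first call was lost without control animals 18 or 20, TSC22D4 animal 26 or TSC22D4+LCN13 animals 30 or 32, and the second in 9 of the 12 fits, all but those without control animal 19, LCN13 animal 23 or TSC22D4+LCN13 animal 29. Against LCN13 shRNA Ubxn4, another anchor of VCP, measured -0.27 (limma adjusted p = 0.0485) and was lost in 11 of the 12, all but that without TSC22D4+LCN13 animal 29. Sec63, which couples BiP to the translocon, fell by 0.22 against control (adjusted p = 0.0343 in limma) and by 0.27 against LCN13 shRNA (adjusted p = 0.0185). The first was lost in 8 of the 12 fits, all but those without LCN13 animals 21 or 22, TSC22D4 animal 26 or TSC22D4+LCN13 animal 30, and the second without LCN13 animal 21 or TSC22D4+LCN13 animals 29 or 32.

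Pdia6, a disulfide isomerase that also attenuates IRE1, measured 7.42, 7.48 and 7.65 in LCN13 animals and 7.95, 7.89 and 7.92 in TSC22D4+LCN13 animals, with control between 7.64 and 7.81. It was higher by 0.40 with TSC22D4+LCN13 than with LCN13 shRNA (SE 0.0641, limma adjusted p = 0.0127), in each of the 12 fits without 1 array, and Sec11a, of the signal peptidase, by 0.45 (adjusted p = 0.0458), lost in 10 of them, all but those without LCN13 animal 21 or TSC22D4 animal 27. Of 9 genes of the mitochondrial stress response none passed against control in limma. With TSC22D4, LCN13 and TSC22D4+LCN13 shRNA 0, 2 and 1 of them had an unadjusted p below 0.05, and 0.336%, 0.85% and 4.34% of all genes passed. Clpx, of the matrix protease ClpXP, measured -0.42 with TSC22D4+LCN13 shRNA (limma adjusted p = 0.0587), and Lonp1, the other matrix protease, -0.59 with LCN13 shRNA (adjusted p = 0.0799). Creb3, a membrane-bound transcription factor of the ER, measured 0.45 with TSC22D4+LCN13 shRNA (adjusted p = 0.0526 in limma).

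**Figure D5:**
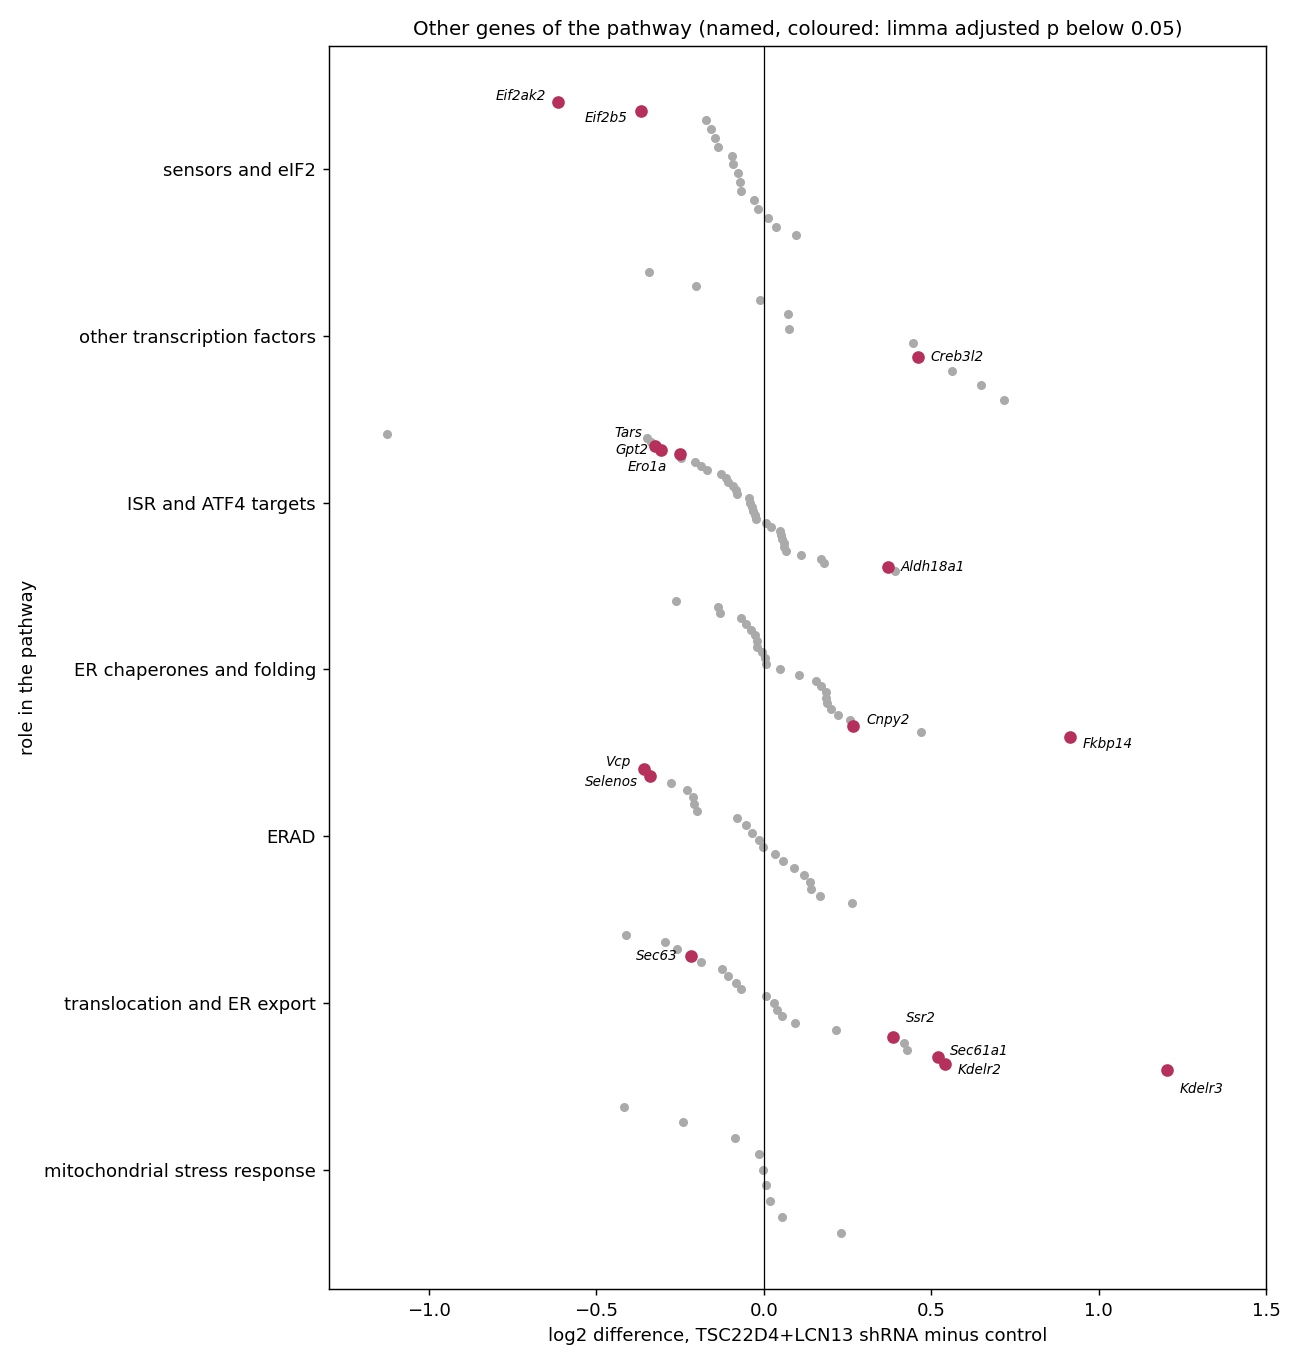
Log2 difference of 136 other pathway genes between TSC22D4+LCN13 shRNA and control, in 7 classes by role; each point is a gene, and those with a limma adjusted p below 0.05 are coloured and named. The 8 coloured points to the right reach 1.20 (Kdelr3), and the 8 to the left reach -0.61 (Eif2ak2).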

How the data were processed

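Per the labels' protocols, total RNA of gastrocnemius was turned into biotin-labelled cDNA and read on Affymetrix arrays. The log2 values deposited by the authors are from RMA (named in the submitters' processing notes), which corrects background, gives arrays equal distributions and summarises probes on the log2 scale, so a shift of most transcripts would not be visible. The sources used here name no version of RMA and no genome build. Values lay between 4.78 and 14.09. Of 25206 probe sets, 23185 had 1 gene symbol in the annotation table and entered the fit, and 2021 (8.02%) did not. Dim probe sets were kept, and no pseudocount was added. The number of arrays limits the precision.

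Groups were read from the labels, which number each animal once, pair none across groups and name no batch. With limma 3.58.1 (R 4.3.3), lmFit and eBayes estimated 4 group means per gene from 12 arrays, with 8 residual degrees of freedom and 1.69 prior ones. The 8 comparisons were: 6 between groups, the interaction and a test over the 4 groups. The interaction is TSC22D4+LCN13 minus LCN13, less TSC22D4 minus control. Tests were two-sided, p was adjusted by Benjamini-Hochberg over all 23185 genes, and a gene passed below 0.05. Differences are of mean log2 levels with the moderated standard error. Correlations used levels with group means removed and all 1296 permutations within groups (smallest p 0.000772). The steps were tested on simulated data.

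The 10 genes, the pathway list and the marker lists were chosen with earlier results of these data known. All 10 genes are named in the text. Named from the pathway list were the genes past the threshold in any comparison and the 2 with the smallest p against control in each class, of which the text gives a subset. Alternatives were all probe sets, genes above the median level, limma's trend and robust options, quantile normalization, centring on the median, array weights, the compared arrays alone, each array left out, and a marker covariate added after the data were seen. Promoters came from RefSeq. The full strain name is not reported here.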

Additional observations from a re-analysis of the deposited data

How the results depend on the processing

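The number of the 10 genes past the threshold with TSC22D4+LCN13 shRNA against control was 1 (Atf4), and 0 with limma's trend and robust options, with the compared arrays alone and with the tendon and fibroblast covariate. Against LCN13 shRNA it was 1, and 0 with trend and robust options and with the compared arrays alone. Over the fits without 1 array it was 1 to 2 there, 0 to 1 in TSC22D4 against LCN13 shRNA and 1 to 2 in the test for any difference, the higher values being those without TSC22D4+LCN13 animal 30, where Hsp90b1 also passed. The test for any difference gave 0 with trend and robust options. Of 1383 recomputed log2 differences of the 10 genes in 7 comparisons, 1323 kept their direction and their side of the threshold, 5 lost a call and 2 gained one. The other 53 changed sign without being called. With the compared arrays alone fewer arrays estimate the spread, and the cause of the other losses was not tested.

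Counts over all genes moved more. Over the fits without 1 array they ran from 36 to 105 (78 with all arrays) for TSC22D4 shRNA against control, 77 to 280 (197) for LCN13, 334 to 1106 (1007) for TSC22D4+LCN13, 0 to 2 (0) for TSC22D4+LCN13 against TSC22D4, 318 to 1320 (977) against LCN13, 0 to 198 (29) for TSC22D4 against LCN13, 3 to 50 (29) for the interaction and 354 to 1072 (773) for any difference. With the covariate they were 25, 4 and 27 against control. No paired analysis was possible because animal numbers differ between groups.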
